A study of Mus musculus with 30 samples.

Results

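Ptpn22, Cfp, Fetub, Sel1l3, Gapt, Timd2, Ada and Lrrc25 are 8 genes chosen because their mean expression was higher after 48 h of mafosfamide than at 0 h in a mouse B-cell lymphoma line. They are 8 of the 19937 genes that the arrays measured with a probe set annotated to 1 symbol, and each of the 8 has exactly 1 such probe set. They were chosen by the difference of the group means at 48 h and 0 h, so every difference that involves those arrays is given here as a description, without a test. The rule carries no numerical threshold. On the 48 h minus 0 h difference the 8 genes ranked 1 (Ptpn22), 9 (Cfp), 14 (Fetub), 15 (Sel1l3), 16 (Gapt), 33 (Timd2), 45 (Ada) and 66 (Lrrc25) among all 19937, so genes that are not members stood between them.

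The cells carry the Eµ-Myc transgene, in which an immunoglobulin heavy chain enhancer restricts Myc overexpression to the B lineage, on a C57BL/6J background with both copies of Cdkn2a deleted. All groups share these alleles, all come from 1 lymphoma line, and all were grown with irradiated Cdkn2a-/- embryonic fibroblasts as feeders. Parental cells were measured at 0, 6, 12, 24 and 48 h in 750 nM mafosfamide, a form of cyclophosphamide that is active in culture and alkylates DNA, on 5, 4, 4, 5 and 5 arrays. Resistant lines R100, R500, R1000 and R4000, named for the mafosfamide concentration in nM reached during selection, were measured untreated on 1 array each, and all but R100 were measured again, on 1 array each, 24 h after addition of 750 nM mafosfamide. The resistant lines are successive steps of the same dose escalation and not independent derivations, so the 4 untreated and 3 treated arrays repeat 1 selection. Values are log2 expression from 30 Affymetrix Mouse Gene ST 1.0 arrays. The fifth 0 h array had a narrower spread of values (interquartile range 3.07) than the other 29 arrays (3.34 to 3.64), so the main differences from 0 h are given with and without it. B-lineage identity was clear on every array: Pax5, a factor that maintains B-cell identity, lay between 11.50 and 12.05, and Cd79a, a signalling chain of the B-cell receptor, between 13.23 and 13.62. In bulk RNA from a culture, fewer cells of a type and less RNA per cell cannot be told apart.

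The 8 genes belong to no single pathway. Ptpn22 encodes a cytoplasmic tyrosine phosphatase that works with the kinase Csk to restrain signalling from antigen receptors. Gapt is a membrane adaptor that binds GRB2 and is found in B cells and myeloid cells, and Timd2 is a mouse receptor of the TIM family that takes up H-ferritin and is found on B cells. Cfp is properdin, the plasma protein that stabilises the C3 convertase of the alternative complement pathway and is made by leukocytes. Fetub is fetuin-B, a secreted protease inhibitor of the cystatin superfamily best known from liver and from its part in fertilisation. Ada deaminates adenosine and deoxyadenosine, and its loss in humans depletes lymphocytes. Lrrc25 is a leucine-rich-repeat membrane protein reported in human cells to dampen signalling by the RNA sensor RIG-I, and Sel1l3 is named for its likeness to the SEL1L protein of endoplasmic reticulum-associated degradation.

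RefSeq start-site windows (assembly GRCm38.p6) were found for 6 of the 8 genes, 9 windows in all, and the 250 bases before each start were searched on both strands for 7 motifs. The motifs were GAGGAAG (PU.1-type), CAGGTG (the E2A-type E-box), CACGTG (the Myc-type E-box), TGANTCA (AP-1-type), TTCNNNGAA (STAT-type), ATGCAAAT (octamer-type) and the consensus unit of a p53 response element. The windows of Ptpn22, Fetub and Timd2 are printed because the tested comparisons below turn on these 3 genes, with every motif match in capitals.
Ptpn22, first start, chr3:103859545-103859794, plus strand: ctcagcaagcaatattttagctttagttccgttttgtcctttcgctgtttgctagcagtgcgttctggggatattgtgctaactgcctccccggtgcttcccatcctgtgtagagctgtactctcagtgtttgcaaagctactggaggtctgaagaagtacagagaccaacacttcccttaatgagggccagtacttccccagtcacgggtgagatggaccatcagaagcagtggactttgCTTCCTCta
Ptpn22, second start, chr3:103860027-103860276, plus strand: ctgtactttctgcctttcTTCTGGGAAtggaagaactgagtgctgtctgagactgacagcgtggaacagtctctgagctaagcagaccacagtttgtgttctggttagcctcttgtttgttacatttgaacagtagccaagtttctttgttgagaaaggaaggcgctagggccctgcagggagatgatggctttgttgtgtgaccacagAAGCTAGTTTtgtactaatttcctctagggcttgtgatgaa
Fetub, first start, chr16:22918132-22918381, plus strand: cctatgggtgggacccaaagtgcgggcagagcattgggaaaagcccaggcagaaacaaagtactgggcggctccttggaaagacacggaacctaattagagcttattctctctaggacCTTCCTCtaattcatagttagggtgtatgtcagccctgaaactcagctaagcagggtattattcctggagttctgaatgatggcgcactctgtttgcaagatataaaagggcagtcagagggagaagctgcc
Fetub, second start, chr16:22919972-22920221, plus strand: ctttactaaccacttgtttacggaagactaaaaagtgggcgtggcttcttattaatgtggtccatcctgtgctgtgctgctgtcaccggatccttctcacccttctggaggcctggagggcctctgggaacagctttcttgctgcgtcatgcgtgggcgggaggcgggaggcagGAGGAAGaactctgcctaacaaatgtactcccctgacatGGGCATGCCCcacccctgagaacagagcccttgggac
Timd2, first start, chr11:46707105-46707354, minus strand: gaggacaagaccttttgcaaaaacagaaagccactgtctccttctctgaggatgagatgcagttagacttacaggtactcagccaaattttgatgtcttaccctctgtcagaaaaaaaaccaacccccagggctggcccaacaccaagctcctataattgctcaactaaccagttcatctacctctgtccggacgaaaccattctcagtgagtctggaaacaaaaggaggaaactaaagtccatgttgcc
Timd2, second start, chr11:46698831-46699080, minus strand: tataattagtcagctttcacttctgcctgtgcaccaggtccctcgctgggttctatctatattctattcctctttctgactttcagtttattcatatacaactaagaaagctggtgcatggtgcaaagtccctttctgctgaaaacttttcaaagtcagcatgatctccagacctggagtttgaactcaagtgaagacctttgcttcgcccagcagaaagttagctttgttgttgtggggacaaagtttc
The capitals in the first Ptpn22 window are a PU.1-type match on the opposite strand whose first base lies 9 bases before the start. Those in the second window are a STAT-type match 232 bases before and a p53-type match 41 bases before the start. The first Fetub window holds a PU.1-type match 132 bases before the start, and the second holds one at 76 bases and a p53-type match at 37 bases. Neither Timd2 window held any of the 7 motifs. PU.1-type matches were present in 4 of the 9 member windows and in 10.6% of the 32851 windows of the table, p53-type matches in 2 of 9 and 7.13%, and STAT-type matches in 2 of 9 and 7.02%. The E2A-type E-box was in 1 of 9 windows (that of Ada) and 17.2% of the table, and the Myc-type E-box, AP-1-type and octamer-type motifs were in none of the 9, against 6.02%, 6.75% and 1.6% of the table. These matches describe letters only and show no factor at these sites.

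Ptpn22 had the largest 48 h minus 0 h difference of the 19937 genes with a probe set annotated to 1 symbol. Its log2 values at 0 h were 7.15, 8.28, 7.11, 7.18 and 6.82 for arrays 1 to 5, numbered as in the sample descriptions. At 6 h they were 8.33, 8.33, 7.45 and 7.05 for arrays 2 to 5, and at 12 h 8.50, 8.88, 7.61 and 7.51. At 24 h they were 8.89, 8.96, 9.45, 8.44 and 8.26, and at 48 h 9.09, 9.19, 9.63, 8.73 and 8.54. By these numbers, arrays 2 and 3 were the highest at 6, 12, 24 and 48 h, and arrays 4 and 5 the lowest. This did not hold at 0 h, where array 3, at 7.11, lay below arrays 1, 2 and 4. The labels leave the numbering of the 6 h and 12 h arrays unsettled. The group means were 7.31, 7.79, 8.12, 8.80 and 9.04 in order of time, and the 48 h mean was 1.73 above the 0 h mean (1.61 without the fifth 0 h array), a 3.31-fold difference. The second 0 h array, at 8.28, overlapped the 24 h group but lay below all 5 arrays at 48 h.

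Fetub and Cfp, the secreted products among the 8, reached their highest parental mean at 24 h and not at 48 h. Fetub read 8.11, 8.06, 7.06, 7.71 and 7.22 at 0 h, 8.24, 8.38, 8.09 and 7.86 at 6 h, and 8.83, 9.46, 8.95 and 8.77 at 12 h. It read 9.76, 9.16, 9.25, 9.33 and 9.09 at 24 h and 9.16, 8.44, 8.70, 8.72 and 8.51 at 48 h. Every 12 h array was above every 0 h and 6 h array, and the 48 h mean of 8.71 was below both the 12 h mean of 9.004 and the 24 h mean of 9.32. Cfp read 9.06, 10.04, 9.61, 9.57 and 8.84 at 0 h, 9.98, 10.01, 9.76 and 9.38 at 6 h, and 9.99, 10.78, 10.21 and 9.83 at 12 h. It read 10.69, 10.39, 11.29, 10.56 and 10.68 at 24 h and 10.09, 10.20, 11.21, 10.73 and 10.50 at 48 h. Its 24 h and 48 h groups overlapped, with means of 10.72 and 10.55, and all arrays of both lay above every 0 h array.

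Timd2, the H-ferritin receptor, had covered the smallest share of its 48 h difference by 12 h. Its values were 7.08, 6.94, 6.61, 7.12 and 6.59 at 0 h, 6.96, 6.84, 7.31 and 6.88 at 6 h, and 6.97, 7.14, 7.54 and 7.13 at 12 h. They were 8.01, 7.35, 7.95, 7.99 and 8.08 at 24 h and 7.65, 7.32, 7.88, 8.14 and 7.69 at 48 h. The first 3 times overlapped each other, and all arrays at 24 h and 48 h lay above those at 0 h and 6 h, with array 2 the lowest at both late times. Ada, the adenosine deaminase, averaged 9.37 ± 0.28, 9.55 ± 0.15, 9.998 ± 0.28, 10.36 ± 0.20 and 10.17 ± 0.25 over the 5 times (SD, n = 5, 4, 4, 5 and 5). Sel1l3 averaged 8.17 ± 0.18, 8.62 ± 0.40, 8.81 ± 0.43, 9.53 ± 0.41 and 9.25 ± 0.44 over the same times and groups, and array 3 held its highest value from 6 h on. Gapt, the GRB2-binding adaptor, averaged 8.69 ± 0.52, 9.04 ± 0.26, 9.40 ± 0.31, 9.66 ± 0.17 and 9.76 ± 0.17. Lrrc25 had the smallest difference of the 8, with means of 6.52 ± 0.24, 6.65 ± 0.22, 6.82 ± 0.41, 7.14 ± 0.17 and 7.23 ± 0.19.

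**Figure D1:**
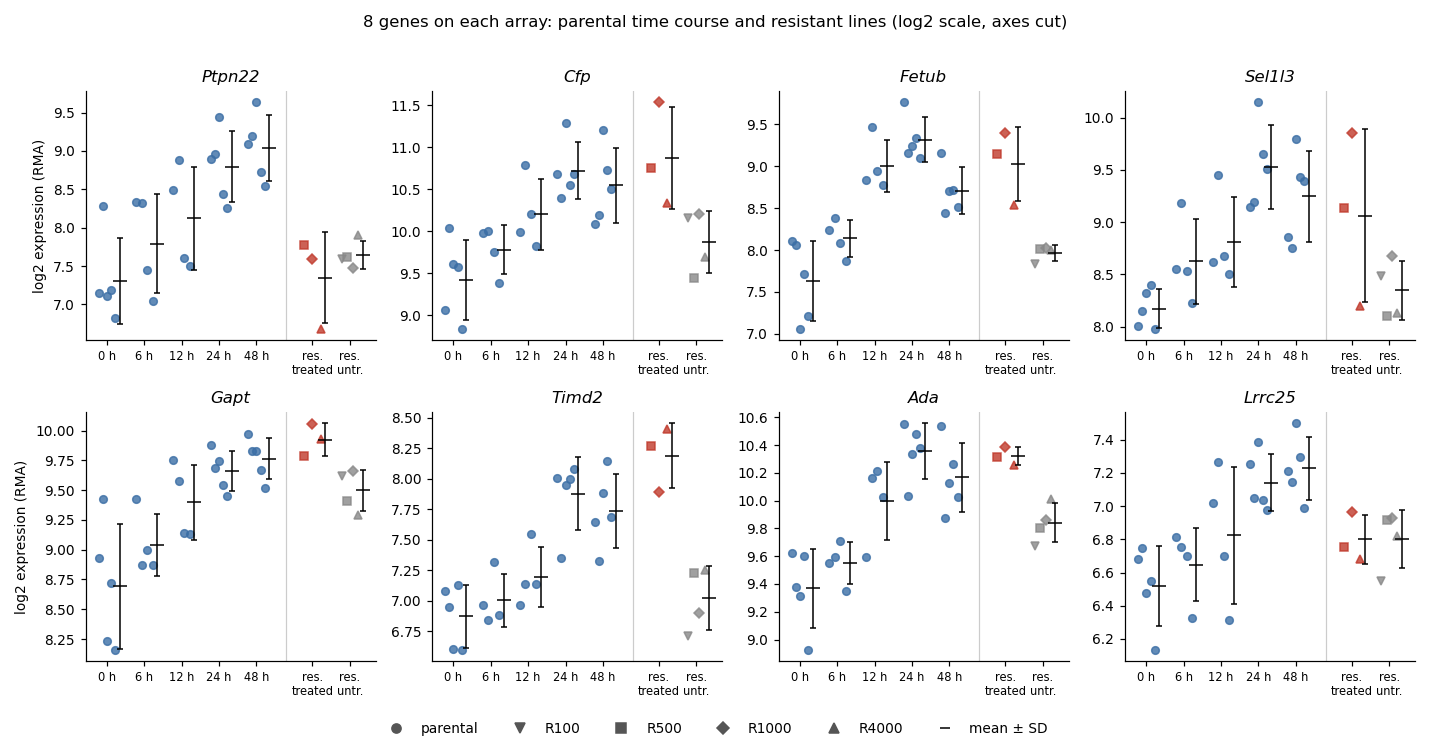
Log2 expression of the 8 genes on each of the 30 arrays. The horizontal axis gives the parental times in order and then the treated and untreated resistant lines, symbols name the line, and black bars are the group mean ± SD. Ptpn22 is the only panel in which all 3 treated resistant lines lie below all 24 h arrays by a wide gap, the closest values being 7.78 in R500 and 8.26 at 24 h.

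The description of these genes as late risers held only in part. Of the 8, 5 had their highest parental mean at 24 h (Cfp, Fetub, Sel1l3, Timd2 and Ada) and 3 at 48 h (Ptpn22, Gapt and Lrrc25). As a share of the 48 h minus 0 h difference, the 24 h difference was 157% for Fetub, 126% for Sel1l3, 124% for Ada, 116% for both Cfp and Timd2, 90.3% for Gapt, 87.5% for Lrrc25 and 86.1% for Ptpn22. Without the fifth 0 h array these shares were 163%, 127%, 128%, 118% (Cfp), 117% (Timd2), 88.9%, 85.6% and 85% in the same order of genes. At 12 h the share was 128% for Fetub but 37.6% for Timd2, with the other 6 between 43.1% and 78.9%, and without that array it was 131% for Fetub, 32.2% for Timd2 and 34.2% to 75.5% for the others. No member's 48 h arrays were all above, or all below, its 24 h arrays (0.868% and 0.928% of all genes). The 48 h minus 24 h difference lay between -0.61 (Fetub) and 0.24 (Ptpn22), a pair of values on opposite sides of 0. All 8 genes had their 5 arrays at 48 h above their 5 arrays at 0 h, as did 0.672% of all genes, which follows from how the 8 were chosen. At 24 h 7 of the 8 did so (1.98% of all genes), the exception being Ptpn22 through its second 0 h array.

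**Figure D2:**
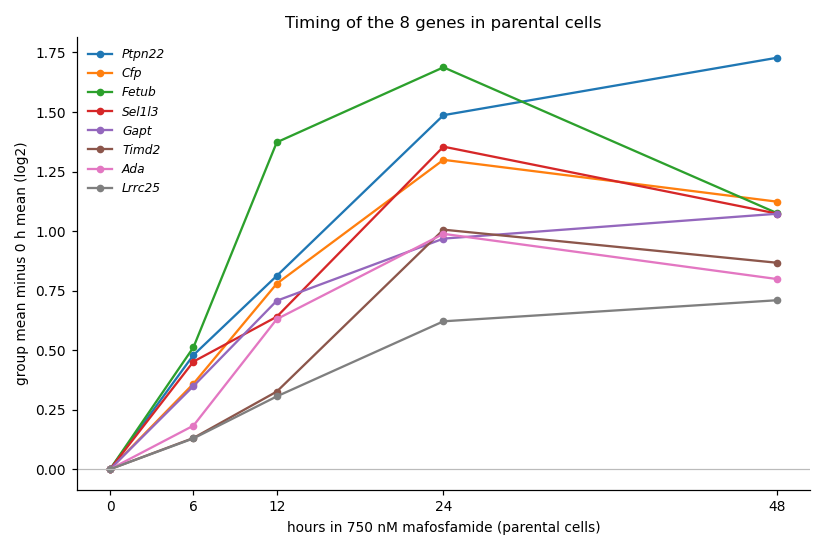
Mean log2 difference from 0 h of each gene in parental cells, plotted against hours in 750 nM mafosfamide. Fetub is highest at 12 h and 24 h (1.37 and 1.69) and is 1.08 at 48 h, whereas Ptpn22 is highest at 48 h (1.73). Without the fifth 0 h array these values are 1.27, 1.58, 0.97 and 1.61.

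Differences among the 6, 12 and 24 h arrays use none of the arrays that chose the genes and were tested with limma, with p-values adjusted by the Benjamini-Hochberg method over all 19937 genes and a threshold of 0.05. They are not fully separate from the choice, because arrays of the same description number deviated together, with correlations of 0.39 to 0.75 between 24 h and 48 h and of 0.31 to 0.77 between 0 h and 6 h. A gene chosen on 48 h minus 0 h can carry part of that choice into 24 h minus 6 h. At 24 h against 6 h all 8 differences were positive. Of the 8 genes, 6 were called higher, against 3.32% of all genes called higher and 4.29% called in either direction. Fetub was 1.18 higher (SE 0.16, adjusted p = 0.00353), a 2.26-fold difference, and Ada was 0.81 higher (SE 0.13, adjusted p = 0.00894). Timd2 was 0.88 higher (SE 0.15, adjusted p = 0.0139), Cfp 0.94 (SE 0.21, adjusted p = 0.0268), Gapt 0.62 (SE 0.15, adjusted p = 0.0347) and Sel1l3 0.90 (SE 0.24, adjusted p = 0.0488). Ptpn22 differed by 1.01 (SE 0.34, adjusted p = 0.101) and Lrrc25 by 0.49 (SE 0.16, adjusted p = 0.0995), and neither passed the threshold. The median over the 8 was 0.89, against -0.04 over all genes. The 24 h arrays were all above the 6 h arrays for 6 genes (3.99% of all genes), the exceptions being Ptpn22 and Sel1l3, whose arrays 2 and 3 (Ptpn22) and 3 (Sel1l3) were already high at 6 h. The call of Sel1l3 rests on small margins, since it was kept on leaving out 1 of the 9 arrays in turn and lost on leaving out any of the other 8. Those of Fetub and Ada were kept on all 9, that of Timd2 on 7, Cfp on 6 and Gapt on 4. Over all 19 refits, calls were kept in 17 for Fetub and Ada, 15 for Cfp, 11 for Gapt and 7 for Sel1l3. For Timd2 it was 15 of 18.

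The numbers in the sample descriptions paired the arrays over these 3 times by the correlation of their deviations across the genes tested, although across all probe sets they did so only for 24 h and 12 h. With that number as a block, all 8 genes were called at 24 h against 6 h (14.1% of all genes in either direction and 9.32% higher), including Ptpn22 (0.98, adjusted p = 0.000409) and Lrrc25 (0.46, adjusted p = 0.0163). Within every one of the 4 numbers measured at both times, all 8 genes were higher at 24 h than at 6 h, which 15.9% of all genes also were. The within-number differences of Ptpn22 ran between 0.62 and 1.21, although its group values overlapped.

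In the main fit, without the block, neither of the shorter intervals gave a call. At 12 h against 6 h no member passed the limma test, and 0.0552% of all genes did. An unadjusted p under 0.05 was reached by 3 of the 8 members and by 922 of the 19937 genes. Fetub came closest, with a difference of 0.86 (SE 0.17, adjusted p = 0.178), and it was the only member whose 12 h arrays were all above its 6 h arrays (1.44% of all genes). At 24 h against 12 h again no member passed in limma (0.0502% of all genes called), with Timd2 at 0.68 (SE 0.15, adjusted p = 0.117) and Sel1l3 at 0.71 (SE 0.24, adjusted p = 0.208). Here 4 of the 8 members, and 2544 of the 19937 genes, had an unadjusted p under 0.05. With array weights and no block, Fetub (adjusted p = 0.0268) and Ada (adjusted p = 0.0217) were called at 12 h against 6 h. Sel1l3 (adjusted p = 0.0349) and Timd2 (adjusted p = 0.00947) were called at 24 h against 12 h. Those weighted fits called 112 genes higher and 155 lower, and 852 and 802, over the whole array. The fibroblast covariate described below also called Sel1l3 at 24 h against 12 h (adjusted p = 0.0446). With the description number as a block, Fetub rose at 12 h against 6 h (0.86, adjusted p = 0.00551, with 0.306% of all genes called). In the same blocked fit Ptpn22 (0.65, adjusted p = 0.0111), Sel1l3 (0.81, adjusted p = 0.00817) and Timd2 (0.65, adjusted p = 0.0174) rose at 24 h against 12 h, where 4.87% of all genes were called. These blocked calls depend on the numbering, which the labels leave unsettled. Both numberings pair the same 6 h and 12 h arrays. For 12 h against 6 h they differ only in which 24 h arrays share a block. With the title number as the block, no member was called in either interval (adjusted p = 0.219 for Fetub at 12 h against 6 h, and 0.16, 0.205 and 0.0992 for Ptpn22, Sel1l3 and Timd2 at 24 h against 12 h).

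Fibroblast markers moved with these times. Of 21 measured genes on a 25-gene fibroblast list, 10 rose at 24 h against 6 h and none fell, with a median difference of 0.59, and the mean of the list ranged from 8.46 to 9.90 on the 24 h arrays and from 8.07 to 8.45 on the 6 h arrays. Across the 30 arrays, after removal of the group means, the 8 genes had correlations with this list mean between -0.55 (Sel1l3) and 0.11 (Fetub), given as a description of arrays that share their groups. With the list mean as a covariate the 8 differences at 24 h against 6 h lay between 0.58 and 1.75, all positive, and Cfp (adjusted p = 0.0239) and Sel1l3 (adjusted p = 0.00865) alone were called. That fit called 53 genes higher and 1 lower over the whole array. With the description-number block and the covariate together 1 member, Timd2, was called (1.43, adjusted p = 0.0406). The same fit called no member at 24 h against 12 h, with adjusted p = 0.183, 0.163 and 0.0892 for Ptpn22, Sel1l3 and Timd2, and kept the call of Fetub at 12 h against 6 h (0.81, adjusted p = 0.038). Myeloid markers gave no call of 19 at any of the compared times, and their list mean ranged from 7.37 to 7.78 at 24 h and 7.35 to 7.54 at 6 h. After removal of the group means, the correlations of the 8 genes with the myeloid list mean lay between -0.49 (Gapt) and 0.58 (Sel1l3), with 0.37 for Cfp, and over the 30 arrays as they stand they were 0.66 for Sel1l3 and 0.59 for Cfp. The part of these markers was not tested.

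In the resistant lines the 8 genes did not all move together. Timd2 read 8.27 in treated R500, 7.89 in treated R1000 and 8.40 in treated R4000, against 7.23, 6.89 and 7.25 in the same lines untreated and 6.71 in untreated R100. All 3 treated arrays lay above all 4 untreated ones, and the difference within lines was 1.04, 1.00 and 1.15. In a fit over the 20 arrays that the choice of genes did not use, with a term for each line, Timd2 rose by 1.06 (SE 0.18, adjusted p = 0.0187), a 2.09-fold difference, and was the only member called, against 0.155% of all genes called and 0.11% called higher. The call was lost when any 1 of the 3 pairs was left out (adjusted p between 0.149 and 0.245), with the difference still between 1.02 and 1.10. Over all 14 refits, 6 of them leaving out 1 array of a pair, the call was kept in 7.

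Fetub and Cfp differed by amounts of the same order without passing the threshold in that fit. Each was called in 2 of 15 refits. These were median centring (adjusted p = 0.038) and array weights (adjusted p = 0.00502) for Fetub. For Cfp they were array weights (adjusted p = 0.0157) and resistant-line arrays only (adjusted p = 0.0317). Fetub read 9.15, 9.40 and 8.54 in treated R500, R1000 and R4000, against 8.01, 8.02 and 8.001 in the same lines untreated, a fitted difference of 1.02 (SE 0.20, adjusted p = 0.0659). Cfp read 10.76, 11.54 and 10.34 in the treated lines, against 9.44, 10.20 and 9.69 untreated, a difference of 1.10 (SE 0.25, adjusted p = 0.136). The treated arrays of Timd2, Fetub, Cfp, Gapt and Ada did not overlap the untreated ones (5 of 8 genes, with 5.52% of all genes). Gapt differed by 0.47 (SE 0.17, adjusted p = 0.586) and Ada by 0.43 (SE 0.15, adjusted p = 0.549), and Sel1l3 by 0.76 (SE 0.30, adjusted p = 0.67).

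Ptpn22 and Lrrc25 did not share this pattern. Ptpn22 read 7.78, 7.59 and 6.68 in treated R500, R1000 and R4000, against 7.61, 7.47 and 7.90 in the same lines untreated. The within-line differences were 0.17, 0.12 and -1.22, so treated and untreated lines overlapped and R4000 alone carried the negative mean difference of -0.31 (SE 0.42, adjusted p = 0.999). Lrrc25 read 6.76, 6.96 and 6.68 in the treated lines, against 6.91, 6.93 and 6.82 untreated, a difference of -0.09 (SE 0.19, adjusted p = 0.999, 95% interval -0.48 to 0.31). R4000 also had the smallest response of the 3 lines for Cfp (0.65), Fetub (0.54), Sel1l3 (0.07) and Ada (0.25), but the largest for Gapt (0.64) and Timd2 (1.15). With 1 array per line and treatment, these differences between lines have no replicate check.

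**Figure D3:**
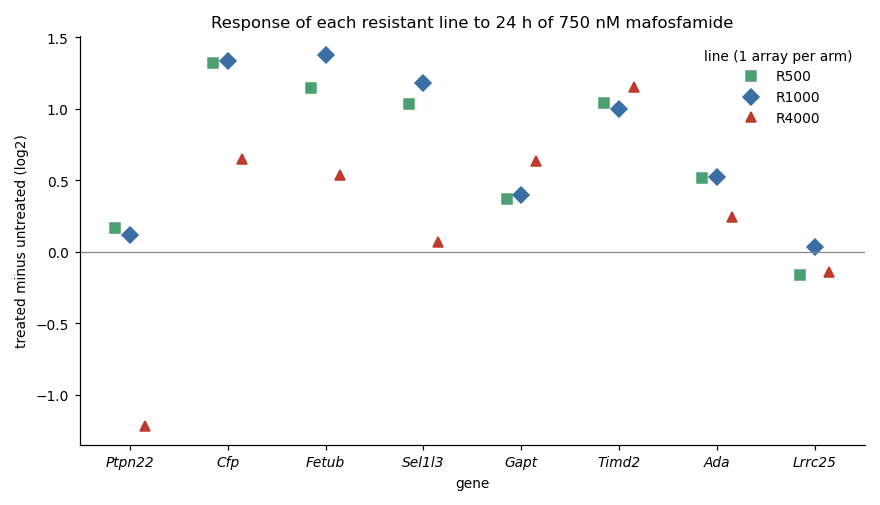
Treated minus untreated log2 difference of each gene in R500, R1000 and R4000, with 1 array per arm and so no error bar. Timd2 lies between 1.00 and 1.15 in all 3 lines, whereas Ptpn22 lies at 0.17 and 0.12 in R500 and R1000 and at -1.22 in R4000.

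Set against parental cells after the same 24 h in 750 nM mafosfamide, the treated resistant lines were lower in Ptpn22. Its 3 values in the treated lines (6.68 to 7.78) lay below all 5 at 24 h in parental cells (8.26 to 9.45), and the difference was -1.45 (SE 0.35, adjusted p = 0.0175), a level 2.72-fold lower. Ptpn22 was the only member called in this limma comparison, in which 4.96% of all genes were called and 4.36% were called lower. This test is not fully separate from the choice of the genes. The parental 24 h arrays deviated together with the 48 h arrays (correlations of 0.39 to 0.75), and Ptpn22 ranked 1 in the choice. Part of the choice can therefore raise its parental 24 h level and enter this difference. Without the treated R4000 array the difference was -1.11 and the call was lost (adjusted p = 0.161), while it was kept on leaving out any other array of the 2 groups. Over all 15 refits the call was kept in 12. Lrrc25 was also lower on all 3 treated arrays than on all 5 parental ones (2 of 8 genes, with 6.74% of all genes), at -0.34 (SE 0.16, adjusted p = 0.327). The other 6 differed by between -0.46 (Sel1l3) and 0.31 (Timd2), with adjusted p-values of 0.415 to 0.927, and the 95% interval for Ada was -0.30 to 0.23.

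The fibroblast list moved with this comparison too. Of its 21 measured genes, 10 were called lower in the treated lines than in parental cells at 24 h, and its mean ranged from 8.09 to 8.40 in the treated lines and from 8.46 to 9.90 in the parental cells. With that mean as a covariate the Ptpn22 difference was -1.81 and was not called (adjusted p = 0.174). The same fit called 13 genes higher and 19 lower over the whole array, against 119 and 870 without the covariate. In treated against untreated resistant lines, where the list mean was 8.09 to 8.40 and 8.42 to 8.59, no fibroblast gene was called, and Timd2 remained called with the covariate (1.05, adjusted p = 0.0228). The myeloid list mean was 7.60 to 7.72 in the treated lines and 7.31 to 7.52 in the untreated ones, with 0 of 19 genes called, and 15 of the 19 differences were above 0. Of its defining genes, Itgam was 8.29 to 8.55 in the treated lines and 7.64 to 7.98 in the untreated ones, and Csf1r was 7.34 to 8.06 in the treated lines and 7.01 to 7.25 in the untreated ones, with no overlap for either. Lyz2, Cd14 and Adgre1 averaged 6.01, 6.02 and 5.56 in the treated lines and 5.85, 6.17 and 5.60 in the untreated ones. The part of these markers in the differences of Cfp and Fetub was not tested. T and NK cell and erythroid lists gave no call in any comparison, and the plasma cell list gave 1 gene higher at 24 h against 6 h and 1 lower in treated lines against parental cells. Of 12 measured B-lineage genes, 1 was called higher at 24 h against 6 h and 1 lower at 48 h against 0 h. At each of these, 6 of the 12 differences were above 0.

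**Figure D4:**
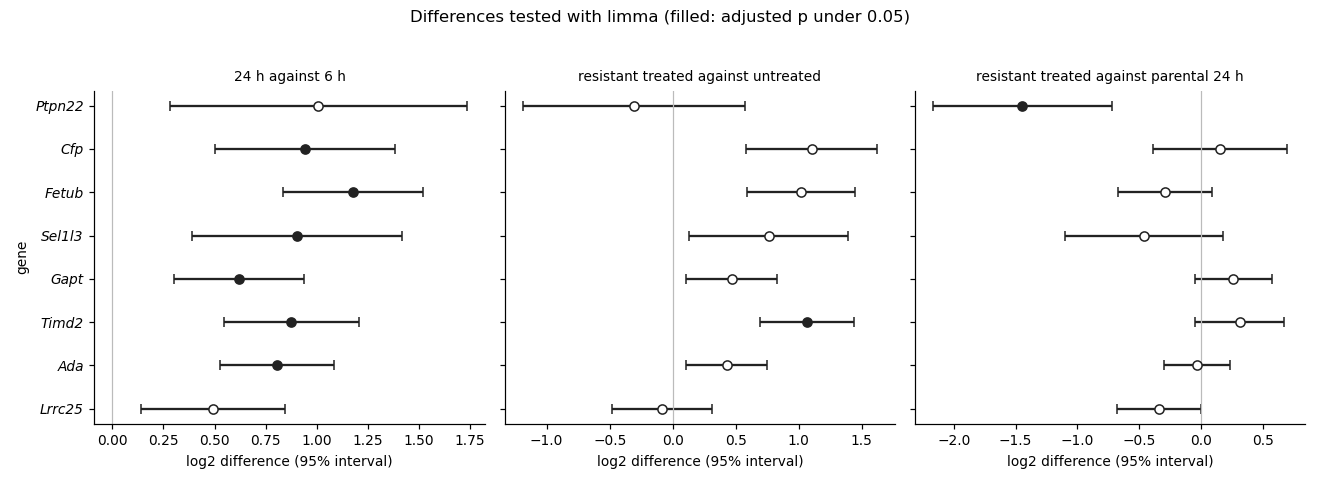
Limma log2 differences with 95% intervals for the 8 genes in parental cells at 24 h against 6 h, in treated against untreated resistant lines, and in treated resistant lines against parental cells at 24 h. Filled points have an adjusted p under 0.05: 6 genes in the first comparison, Timd2 in the second and Ptpn22 in the third.

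Before treatment, the untreated resistant lines had means above parental cells at 0 h for all 8 genes, with differences of 0.15 (Timd2) to 0.81 (Gapt), given without a test because 0 h arrays chose the genes. Without the fifth 0 h array they were 0.08 (Timd2) to 0.67 (Gapt). Ada was the only gene whose 4 untreated lines (9.68 to 10.01) all lay above the 5 arrays at 0 h (8.93 to 9.62), as 2.32% of all genes did. Gapt in the untreated lines, at 9.29 to 9.66, lay within its parental range at 12 h (9.13 to 9.75). Ordered by mean over all 7 groups, Ptpn22 was highest in parental cells at 48 h and 24 h, whereas Cfp, Gapt and Timd2 were highest in the treated resistant lines, at 10.88, 9.92 and 8.19.

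The 8 lists drawn up for the wider pathways of these genes held 135 measured genes, of which 4 were called at 24 h against 6 h (2.96%, near the 4.29% of all genes) and 5 in treated lines against parental cells at 24 h (3.7%, near the 4.96% of all genes). Of 23 measured genes that restrain or carry B-cell receptor signalling, the setting of Ptpn22, 1 rose and 1 fell at 24 h against 6 h. Ubash3b, a phosphatase that dampens receptor signalling, averaged 6.96 at 24 h and 6.48 at 6 h (difference 0.48, SE 0.07, adjusted p = 0.00376). Csk, the kinase that binds Ptpn22, averaged 12.05 at 24 h and 12.34 at 6 h (difference -0.29, SE 0.05, adjusted p = 0.0161). No gene of this list was called at 48 h against 0 h, where 0.251% of all genes were. None of 15 alternative complement genes beside Cfp was called in any comparison, and Cr2, a receptor for C3 fragments, differed by 0.65 at 24 h against 6 h (adjusted p = 0.0691). None of 14 fetuin and cystatin genes was called in any of the 6 limma comparisons, nor any of 14 genes of the TIM family and ferritin handling, with medians of -0.04 and 0.07 at 24 h against 6 h.

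Of 23 measured genes on the list drawn up for purine nucleoside metabolism, the setting of Ada, 1 rose at 24 h against 6 h. This was Adk, which phosphorylates the adenosine that Ada deaminates (0.27, SE 0.07, adjusted p = 0.0465). Pnp, the next enzyme after Ada in the breakdown of purine nucleosides, was the only gene of the 8 lists called at 48 h against 0 h, with means of 11.64 at 48 h and 11.19 at 0 h (0.45, SE 0.09, adjusted p = 0.0211). That is 0.741% of the list genes, with 0.251% of all genes. Without the fifth 0 h array the fit called 17 genes in place of 50, and the result for Pnp there is not given. Pnp also rose in treated against untreated resistant lines (0.39, SE 0.07, adjusted p = 0.0483). Of 15 measured genes of SEL1L and endoplasmic reticulum degradation, Edem3, which trims mannose from misfolded glycoproteins, rose at 24 h against 6 h (0.37, SE 0.08, adjusted p = 0.0285). In treated resistant lines against parental cells at 24 h, 2 of 17 adaptor genes were lower, Gab2 (-0.54, adjusted p = 0.0124) and Skap2 (-0.26, adjusted p = 0.0386). So were 2 of 14 genes of the RIG-I list, Ddx58, which encodes RIG-I itself (-0.67, adjusted p = 0.0375), and Sqstm1 (-0.48, adjusted p = 0.029). Of the 23 measured genes placed on the purine list, 1 was lower, Dpp4 (-0.33, adjusted p = 0.0356). Fibroblast genes were lower in this comparison too, and their part in the differences of these list genes was not tested.

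The 8 genes resembled each other to different degrees over the arrays. As a description over 30 arrays that share their groups, the 28 pairs of members had Pearson correlations between 0.34 and 0.89 with a median of 0.70, and between -0.17 and 0.84 with a median of 0.37 once group means were removed. Cfp and Sel1l3 were each other's closest gene (0.89) among genes whose group means spanned at least 1 log2 unit. The gene closest to Ptpn22 was Hbb-bh1, an embryonic haemoglobin chain (0.87), and those closest to Lrrc25 were Gm10384 (0.87) and Ptpn22 (0.87). Ada and Lrrc25 spanned less than 1 unit and so were not candidates for the other members. Among the candidates, Gapt was closest to Bex6 (0.90), Timd2 to Bfsp2 (0.74) and Fetub to Ano10 and Zmat3 (0.83 for each), but the correlation of Ada with Fetub (0.86) and with Timd2 (0.85) was higher than these last values. Of the genes named here that are no members, Zmat3, a p53-responsive gene, differed by 1.48 between treated and untreated resistant lines, against 0.03 for Hbb-bh1.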

How the data were processed

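Total RNA was hybridised to 30 Affymetrix Mouse Gene ST 1.0 arrays. The deposited values are log2 expression, which the authors made from the scanned arrays by robust multi-array averaging with justRMA of affy 1.40.0 (RMA, affy and the mm9 build are named in the submitters' processing notes). This procedure fits probe effects and forces a common distribution, so total RNA changes are not visible. Of 34760 probe sets, 21640 carried 1 symbol in the platform annotation, 1321 carried several and 11799 were unnamed here, and the brightest probe set stood for each of 19937 genes. The members and gene lists were chosen with earlier results of these data known. Named genes were the members, the 3 genes most correlated with each, and the list genes that were called, to which Cr2 was added after its values were seen.

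Comparisons were fitted with limma 3.58.1 in R 4.3.3 (lmFit, eBayes) with Benjamini-Hochberg adjustment over 19937 genes, on the 13 parental arrays at 6, 12 and 24 h or on these with the 7 resistant-line arrays. The fit of 48 h against 0 h used the 23 parental arrays and is given for genes of the lists only. The scripts were tested on simulated data. Parental arrays are labelled biological replicates of 1 line, so p-values of the parental times measure the spread between cultures. Each resistant line has 1 array per treatment. The p-values of the resistant comparisons pool the spread between lines of 1 selection with that between parental cultures. They measure no spread between replicate cultures of a resistant line. The number of arrays limits precision. Sample titles number the 6 h and 12 h arrays 1 to 4 and the descriptions 2 to 5. Correlations of same-numbered deviations over the 19937 genes were above 0.1 for every pair by the description numbers at 24 h and 6 h (0.11 to 0.52), 12 h and 6 h (0.23 to 0.77) and 24 h and 12 h (0.25 to 0.64), and were taken to pair the arrays. Over all 34760 probe sets this held only for 24 h and 12 h (lowest -0.10 for 24 h and 6 h, -0.05 for 12 h and 6 h, 0.16 for 24 h and 12 h). Both checks were seen before any blocked fit was run. By the title numbers the correlations over the 19937 genes were -0.24 to 0.19 at 24 h and 6 h. They were 0.23 to 0.77 at 12 h and 6 h and -0.48 to 0.32 at 24 h and 12 h. No 2 arrays were identical. Alternatives were other centring, filters, weights, covariates, sets of arrays, blocks and leaving out each array.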

Additional observations from a re-analysis of the deposited data

Results flagged for a closer look

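In 48 groups of 4 or 5 arrays (8 genes in 6 groups), 3 had a highest or lowest array whose gap to the nearest other array, as a share of the group's range, passed Dixon's 95% value. Chance flags about 1 in 20 groups. The second 0 h array was high for Ptpn22, at 8.28 against 7.18 for the next (gap share 0.751), and it is the array that keeps Ptpn22 from separating 24 h from 0 h. Untreated R100 was low for Fetub, at 7.83 against 8.001 for the next line (0.889), within a group whose SD was 0.09. The second 24 h array was low for Timd2, at 7.35 against 7.95 for the next (0.819), and without it the 24 h against 6 h difference of Timd2 was 1.01.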

How the results depend on the processing

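The number of members called at 24 h against 6 h was 6, and 2 with the fibroblast covariate, 1 with that covariate and the replicate block together (a fit chosen after seeing the data), and 2 to 5 on leaving out each array in turn, with 2 called without the 6 h array of title number 2 or 4 and 3 without the fourth 24 h array. The replicate block by description number gave 8 and by title number 7. Over all 19937 genes the main fit called 661 higher and 194 lower, the fibroblast covariate 53 and 1, and the covariate with the block 20 and 0. The block by description number called 1858 and 952, and that by title number 812 and 204. Without the 6 h array of title number 2 or 4 the calls were 96 and 36, and 58 and 9. Without the fourth 24 h array they were 188 and 29. At 12 h against 6 h the 0 calls became 2 with array weights (Fetub and Ada), 1 with the replicate block by description number and 1 with that block and the covariate (Fetub in both), and were 0 with the block by title number and 0 on leaving out each array. Over all genes, calls higher and lower were 11 and 0 in the main fit and 112 and 155 with array weights. They were 60 and 1 with the description-number block, 31 and 0 with that block and the covariate, and 7 and 0 with the title-number block. At 24 h against 12 h the 0 calls became 2 with array weights (Sel1l3 and Timd2), 1 with the fibroblast covariate (Sel1l3) and 3 with the replicate block by description number, and were 0 with that by title number, 0 with the block and covariate together and 0 on leaving out each array. The main fit called 6 genes higher and 4 lower over the whole array, array weights 852 and 802, and the fibroblast covariate 8 and 1. The description-number block called 615 and 355, the title-number block 14 and 7, and the block with covariate 1 and 0. For treated against untreated resistant lines the single call, Timd2, became 2 with median centring (Fetub and Timd2). It became 4 with array weights (Cfp, Fetub, Timd2 and Ada) and 2 with resistant-line arrays only (Cfp and Timd2). It became 0 with 16 arrays in the fit, 0 with dim genes left out (Timd2 itself is then not tested) and 0 on leaving out each array. The count stayed at 1, again Timd2, with no replicate block. Over all genes the main fit called 22 higher and 9 lower, median centring 23 and 6, array weights 128 and 110, and resistant-line arrays only 58 and 18. With 16 arrays in the fit 5 and 1 were called, and with dim genes left out 16 and 11. With no replicate block 12 and 7 were called. For treated lines against parental 24 h the single call became 0 with the fibroblast covariate and 0 with only the 2 groups compared, and was 0 to 1 on leaving out each array. Calls higher and lower over all genes were 119 and 870 in the main fit, 13 and 19 with the covariate and 16 and 113 with only the 2 groups. At 48 h against 0 h, 50 genes (22 higher, 28 lower) became 27 with median centring, 145 with the fibroblast covariate, 654 with the replicate block, and 17 to 219 on leaving out each array, highest without the first 0 h array and lowest without the fifth. The cause of these changes was not tested.

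Most of 678 refits of single members were of uncalled differences, which cannot lose a call. Leaving out either array of a resistant pair gives the same fit, and both are counted. In all, 611 kept direction and side of the threshold, 41 lost the call, 19 gained it and 7, all uncalled, turned sign. These were Sel1l3 at 12 h against 6 h without the second 12 h array (leaving out each array gave -0.0242 to 0.3759), Ptpn22 in treated against untreated lines without either R4000 array (-0.5492 to 0.1435), Ada against parental 24 h with median centring (0.0568) or without the first 24 h array (-0.1161 to 0.0146), and Cfp against parental 24 h with the fibroblast covariate (-0.3507) or without treated R1000 (-0.174 to 0.4246). Median centring put the median of all genes at 0.12 in treated lines against parental 24 h, against 0.02 without it. The next brightest probe set could not be tried because each member has 1. The number of arrays limits all of these comparisons.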
